A study of Mus musculus with 32 samples.

Results

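The genes described here belong to the machinery of programmed cell death: the BCL2 family, the caspases, the inhibitor of apoptosis proteins (the BIRC family) and the receptors of the tumour necrosis factor (TNF) superfamily. They were chosen by symbol: names beginning with Bcl2, with Casp, Birc or Tnfrsf followed by a digit (Birc5 left out), and Bax, Bak1, Bad, Bid, Bik, Mcl1, Fas and Apaf1. The rule uses symbols and no measured value. It found 36 of the 8251 genes for which the array had a probe set naming a single gene: 6 Bcl2 symbols, 9 Casp symbols, 3 Birc symbols, 11 Tnfrsf symbols and 7 of the 8 genes listed singly. Casp8ap2, a caspase-8-associated protein that is not a caspase, came in through its symbol. Bax was not analysed here.

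RNA was measured on 32 Affymetrix arrays from wildtype FVB mice, each hybridised with RNA from an individual sample of whole tissue. Chow-fed mice gave mammary glands of pregnancy days 12 and 17 (PD12 and PD17) and of lactation days 1, 2 and 9 (LD1, LD2 and LD9), with 4 arrays for each stage. Mice on 8%, 16% and 40% dietary fat gave mammary glands and mice on 8% fat gave liver, with 3 arrays in each of these groups; tissue on 8% and 40% fat was taken at lactation day 10, and the labels give no day for the 16% glands. The design text describes the 8% and 40% diets, with fat as soy oil by share of Kcal and the switch from chow on lactation day 5, and does not mention the 16% diet. All groups share the wildtype FVB strain, and the labels name no drug, transgene or weaning for any of them. Groups follow the array titles, because the descriptions of the 8% and 16% glands name the 40% diet. Liver and gland on 8% fat may come from the same dams, which the labels do not match. The p-values measure the spread between these samples, since the labels name no animals, and the small number of arrays limits their precision.

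As background, apoptosis is controlled at mitochondria and at the cell surface. At mitochondria, survival proteins such as BCL-XL (Bcl2l1) and MCL1 restrain the pore formers BAX and BAK, BH3-only proteins such as BID, BAD and BIM (Bcl2l11) relieve that restraint, and released cytochrome c joins APAF1 to activate caspase-9. At the cell surface, death receptors such as FAS and TNF receptor 1 (Tnfrsf1a) engage caspase-8, while other receptors of the family, among them TNF receptor 2 (Tnfrsf1b) and RANK (Tnfrsf11a), signal mainly through TRAF adaptors and NF-kappaB. RANK and its ligand RANKL (Tnfsf11) are needed in mice for the alveoli of the gland to form in pregnancy, and the gland is best known for apoptosis after weaning, when most of its milk-producing epithelium is lost. The stages measured here all precede weaning.

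Values are log2 intensities, given per array or as mean ± SD, and a change is the difference between group means on the log2 scale, tested with limma. A change counts as called when its p, adjusted by Benjamini-Hochberg across the probe sets of the fit, is under 0.05. Probe sets entered a fit if at least 1 of its groups averaged 4.22 or more, which is the overall median and is called the intensity line here. Of the 36 genes, 24 reached it in the stages, 19 in the diets and 22 in liver and gland on 8% fat. Bid, Casp1, Casp2 and Apaf1 reached it through PD12 alone and Casp12 through LD2 and LD9. In the tissue comparison Tnfrsf1b, Bid and Birc6 reached it through liver alone, and Tnfrsf11a, Tnfrsf21 and Casp12 through gland alone. These genes had to be lower elsewhere to be seen at all, so the direction of their calls was set in part by the filter. Another 11 stayed below it in every group and are given as levels only: Bcl2, Bcl2l10, Bik, Casp14, Casp4, Tnfrsf11b, Tnfrsf17, Tnfrsf18, Tnfrsf4, Tnfrsf8 and Tnfrsf9. Where the lower of 2 groups lay below the line, a fold is written as at least the ratio of the brighter mean to the line.

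Each array correlated with the others of its group at a mean r between 0.9882 and 0.9954. In marker sums LD9 replicate 1 stood apart from the other 3 LD9 arrays: its erythroid markers summed to an intensity of 575, against 4013 to 8963, its fibroblast markers to 1322, against 2631 to 4125, and its macrophage markers to 435, against 799 to 851. Without that array the same 18 members were called between LD9 and PD12, and Fas was no longer called between LD9 and LD2. The milk protein genes Csn2 and Wap averaged 14.30 ± 0.12 and 15.76 ± 0.06 at LD9, and already 13.48 ± 0.18 and 14.24 ± 0.58 at PD12 (SD, n = 4). Csn2 was at 2.50 ± 0.07 in liver, against 14.25 ± 0.01 in gland, and Alb at 14.88 ± 0.24 in liver, against 3.42 ± 0.05 in gland on 8% fat (SD, n = 3), so the tissues matched their labels. The luminal keratins were well above the line in gland, but the luminal marker Cdh1 and the myoepithelial markers Krt5 and Krt14 were below it in every gland group. Loss of cells of a type and loss of RNA per cell cannot be told apart in whole tissue, which bears on every stage result that follows.

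Scaling bears on every size below. The arrays were used as the authors normalized them, and 3 other scalings were run: quantile normalization, equal medians of 30 ribosomal protein genes, and equal medians of the 4773 probe sets that were dim in every group. Between LD9 and PD12 the ribosomal scaling added 0.87 to every change and the dim scaling subtracted 0.46. The dim probe sets had themselves drifted, by a median of 0.47 upward from PD12 to LD9, with 93.2% of them higher at LD9. Of the 18 members called between these stages, 8 kept their call under each of these scalings in which they were tested: Bcl2l1, Bcl2l13, Bid, Birc2, Casp1, Casp2 and Casp8, all lower, and Tnfrsf11a, higher. Bid and Casp1 lay below the filter after ribosomal scaling and were tested under the other scalings. Bid, Casp1 and Casp2 reached the line through PD12 alone, so the direction of their calls was set in part by the filter.

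Over the 5 stages 20 of the 24 tested members changed by the moderated F test, where 87.5% of all probe sets tested were called. Apaf1, Bad, Bcl2l11 and Casp6 were not called (adjusted p = 0.168, 0.121, 0.503 and 0.0638, limma F). The highest of the 5 stage means was at PD12 for 15 of the 24 and at LD9 for 5, and the lowest was at LD1 for 9. Bid, Casp1, Casp2 and Apaf1 reached the line through PD12 alone and so had to be highest there. The matching shares over all probe sets were not counted, so no PD12 peak of these genes as a set is read from this. Between LD9 and PD12, 4 members were higher and 14 lower, with a median difference of -0.60 over the 24, against -0.13 over all probe sets tested, of which 77.6% were called, 35.2% higher and 42.4% lower. The split was 11 higher and 5 lower after ribosomal scaling, 8 and 13 after quantile normalization, and 1 and 18 with dim probe sets set equal. The 18 of 24 tested members called are near that background, so the paragraphs below turn to the individual genes.

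**Figure D1:**
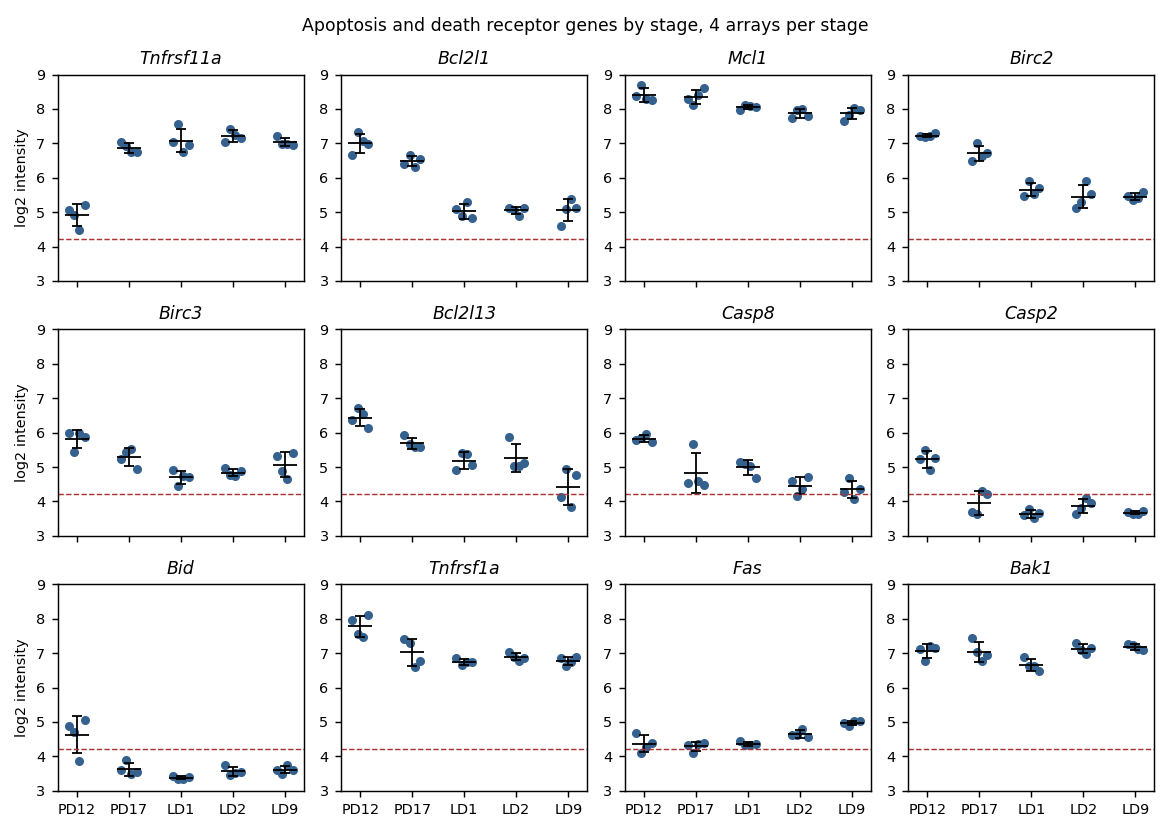
Log2 intensity of 12 members in the mammary gland at PD12, PD17, LD1, LD2 and LD9. Each point is an array (n = 4 per stage), bars show mean ± SD, and the dashed line marks the intensity line of 4.22. Tnfrsf11a steps up between PD12 and PD17, Bcl2l1 and Birc2 step down between PD17 and LD1, and the means of Casp2 and Bid lie below the line after PD12.

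The receptor with the largest change over the stages was Tnfrsf11a, which encodes RANK. Its 4 values were 5.05, 4.91, 4.48 and 5.21 at PD12, then 7.05, 6.92, 6.74 and 6.76 at PD17. The lactating glands held 7.05, 7.56, 6.75 and 6.96 at LD1, 7.03, 7.42, 7.24 and 7.15 at LD2, and 7.22, 6.97, 6.99 and 6.96 at LD9. Every array from PD17 on thus lay above every PD12 array, and the 4 later stages overlapped each other. PD17 was 3.88-fold above PD12 (log2 change 1.95, SE 0.16, adjusted p = 2.50e-08, limma), and LD9 was 4.35-fold above PD12 (2.12, SE 0.16, 1.06e-09). With the deposited values no change was called between PD17 and LD1 or LD2, between LD1 and LD2, or between LD2 and LD9. LD2 was called above PD17 with quantile normalization (0.52, adjusted p = 0.00750) and after ribosomal scaling (0.90, 8.46e-05). A fit of those stages alone also called that difference (0.34, 0.0318), and ribosomal scaling called LD1 above PD17 (0.58, 0.00683). Both rises from PD12 held under each scaling and with each array left out.

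Its ligand gene moved the other way. Tnfsf11 averaged 3.19 ± 0.04 at PD17, below the line, and 4.41 ± 0.33 at PD12 (SD, n = 4; adjusted p = 1.57e-07, limma), and was still below the line at LD9 with 3.52 ± 0.10 (1.46e-06). Both calls held with quantile normalization and with dim probe sets set equal, and the gene lay below the filter after ribosomal scaling. Tnfsf11 reached the line at PD12 alone, so it had to be lower at the other stages to be tested. Tnfrsf11b, which encodes the decoy receptor osteoprotegerin, lay below the line throughout, with 3.59, 3.33, 3.52 and 3.48 at LD9 and 3.51, 2.91, 2.93 and 3.76 at PD12. The 2 higher PD12 arrays for Tnfrsf11b, replicates 1 and 4, were also the higher ones for Tnfrsf11a.

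The stretch before the annotated start of Tnfrsf11a is shown because this gene carries the largest rise over the stages. It is taken from RefSeq on GRCm38.p6, chr1:105780473-105780672, plus strand, read toward the gene, and is all in lower case because neither motif searched here was found in it.
Tnfrsf11a: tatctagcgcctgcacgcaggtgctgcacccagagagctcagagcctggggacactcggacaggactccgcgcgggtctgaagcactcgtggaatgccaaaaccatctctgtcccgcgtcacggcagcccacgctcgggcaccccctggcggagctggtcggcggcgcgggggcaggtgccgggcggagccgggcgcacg
The motifs were the kappaB consensus, bound by NF-kappaB dimers, and the palindrome TTCNNNGAA, bound by STAT factors including the STAT5 proteins of the prolactin pathway. Both strands were searched in the 250 bases before each annotated start, and capitals mark a match in the sequences printed here. Over all 32851 RefSeq windows 7.25% held the kappaB consensus and 7.02% held TTCNNNGAA. Promoter windows were found for 33 of the 36 genes, of which 4 held the kappaB consensus and 6 the palindrome, and none of the 30-base stretches printed here holds both.

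The death receptors proper moved less, and not together. Tnfrsf1a, the main receptor for TNF, had 7.96, 7.56, 7.48 and 8.12 at PD12, 7.41, 7.29, 6.61 and 6.77 at PD17, and 6.85, 6.62, 6.73 and 6.88 at LD9. All 4 PD17 arrays were below all 4 PD12 arrays, and the fall was 1.70-fold (log2 change -0.76, SE 0.16, adjusted p = 0.000856, limma). By LD9 it was 2.02-fold lower than at PD12 (-1.01, SE 0.16, 1.29e-05), a call that ribosomal scaling removed (-0.14, adjusted p = 0.470). The PD17 fall held under each scaling.

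Fas, whose receptor recruits FADD and caspase-8, had 4.69, 4.11, 4.26 and 4.40 at PD12, 4.61, 4.61, 4.81 and 4.56 at LD2, and 4.97, 4.89, 5.03 and 5.02 at LD9. The LD9 arrays lay above all of the earlier ones. It was 1.53-fold higher at LD9 than at PD12 (log2 change 0.62, SE 0.11, adjusted p = 3.86e-05, limma), 1.26-fold higher at LD9 than at LD2 (0.33, SE 0.11, 0.0297) and 1.28-fold higher at LD2 than at PD17 (0.35, SE 0.11, 0.0113). Dim probe sets were higher too, by medians of 0.47, 0.12 and 0.19 in these comparisons, and with their medians set equal none of the rises was called (LD9 against PD12 0.16, adjusted p = 0.185; LD9 against LD2 0.21, adjusted p = 0.170; LD2 against PD17 0.16, adjusted p = 0.247). The LD9 against LD2 call was also lost in 6 of 8 fits that left out an array, with adjusted p of 0.0561 to 0.0790. A control probe set for the same gene averaged 5.17 ± 0.12 at LD9 and 4.56 ± 0.15 at PD12 (SD, n = 4).

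Among the other receptors, Tnfrsf21, known as death receptor 6, had 5.14, 5.40, 4.95 and 5.19 at LD9, against 6.09, 5.34, 5.61 and 6.33 at PD12. The groups overlapped, and its fall of 0.67 (SE 0.23, adjusted p = 0.0137, limma) was lost without PD12 replicate 4 (adjusted p = 0.0620), with quantile normalization (0.0887), and turned to 0.20 after ribosomal scaling (0.404). Tnfrsf19, an orphan receptor also called TROY, was 0.69 higher at LD9 than at PD12 (SE 0.17, adjusted p = 0.000873), and 0.24 higher with dim probe sets set equal (0.180). Tnfrsf1b stayed far below the line in gland, with 2.18, 2.05, 2.15 and 2.18 at LD9 and 2.51, 1.75, 2.08 and 2.77 at PD12. Tnfrsf4, Tnfrsf8, Tnfrsf9, Tnfrsf17 and Tnfrsf18, receptors best known from lymphocytes, had group means from 2.46 to 4.19 over all 9 groups, none above the line.

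Short stretches around the matches are shown for the receptor and caspase genes that were above the line, as descriptions of sequence only. Each is from RefSeq on GRCm38.p6 and read 5′ to 3′ toward the gene, with TTCNNNGAA in capitals.
Tnfrsf1a, chr6:125349473-125349502, plus strand: gcttccTTCCGTGAAattgacaacaggctt
Fas, chr19:34290556-34290585, plus strand: tcaaagcgatTTCTGGGAAgacctgaatag
Tnfrsf1b, chr4:145247032-145247061, minus strand: agcgcattcaTTCCCGGAAgagatgctgga
Casp12, chr9:5345364-5345393, plus strand: ctggttgactTTCTGGGAAaagagcaggag
Casp12, chr9:5345430-5345459, plus strand: attggtatgtTTCTGGGAAggaaaggcaca
The match began 244 bases before the start in Tnfrsf1a, 93 in Fas, 181 in Tnfrsf1b, and 102 and 36 in Casp12. In the glands of this time course Fas and Casp12 were called higher at LD9 than at PD12, Tnfrsf1a was called lower, and Tnfrsf1b was below the line. The Fas and Casp12 calls were lost with dim probe sets set equal (0.16 and 0.05), and the Tnfrsf1a call after ribosomal scaling (-0.14). Casp12 reached the line through LD2 and LD9 alone. Tnfrsf18 and Tnfrsf9 also hold the palindrome and were below the line. Whether the palindrome has a part in these levels was not tested.

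In the BCL2 family the survival gene Bcl2l1 had the largest fall between PD17 and LD1. Its values were 6.65, 7.32, 7.06 and 6.98 at PD12 and 6.41, 6.65, 6.32 and 6.53 at PD17. After birth they were 5.08, 4.89, 5.29 and 4.82 at LD1, 5.13, 5.06, 4.90 and 5.12 at LD2, and 4.61, 5.10, 5.38 and 5.12 at LD9. All 12 lactation arrays lay below all 8 pregnancy arrays, by at least the gap between 5.38 and 6.32, and the lactation stages overlapped. LD1 was 2.74-fold below PD17 (log2 change -1.46, SE 0.16, adjusted p = 1.41e-06, limma), LD2 was 2.68-fold below PD17 (-1.42, SE 0.16, 8.83e-07), and LD9 was 3.88-fold below PD12 (-1.95, SE 0.16, 1.92e-09). The LD1 and LD2 comparisons share the PD17 arrays. These 3 falls held under each scaling and with each array left out. The smaller fall from PD12 to PD17 (-0.53, SE 0.16, adjusted p = 0.00983) was lost with quantile normalization (0.109), with ribosomal scaling (0.0944) and when the gene's dim second probe set was averaged in (-0.19, 0.0981).

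Bcl2l1 was the only tested member whose 250-base window held the kappaB consensus, beginning 242 bases before the annotated start, and the stretch is shown with the consensus in capitals (RefSeq, GRCm38.p6).
Bcl2l1, chr2:152830938-152830967, minus strand: tgtttgtgGGGGGTCTCCagcatacgcctc
Of all RefSeq windows, 7.25% hold this motif.

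Mcl1, which encodes a short-lived survival protein, was among the brightest members, with 8.37, 8.70, 8.29 and 8.25 at PD12, 8.30, 8.11, 8.41 and 8.60 at PD17, 7.73, 7.97, 8.01 and 7.80 at LD2 and 7.66, 7.83, 8.03 and 7.96 at LD9. LD2 arrays were all below PD17 arrays. Its changes were small: 1.39-fold lower at LD2 than at PD17 (log2 change -0.48, SE 0.12, adjusted p = 0.00333, limma) and 1.45-fold lower at LD9 than at PD12 (-0.53, SE 0.12, 0.000502). After ribosomal scaling they were 0.08 and 0.34 (adjusted p = 0.663 and 0.0516), and quantile normalization left -0.01 at LD9 (0.949), so their direction depends on the scaling. With the deposited values Bcl2l2 (BCL-W) gave no call in the 6 stage comparisons, although the moderated F test over the stages called it (adjusted p = 0.0311). Its means were 6.47 ± 0.33 at PD12, 6.59 ± 0.28 at PD17, 6.99 ± 0.19 at LD1, 6.83 ± 0.12 at LD2 and 6.73 ± 0.12 at LD9 (SD, n = 4). Bcl2l2 was called higher at LD9 than at PD12 with quantile normalization (0.75, adjusted p = 0.000176) and after ribosomal scaling (1.14, 2.03e-06). Bcl2 itself was not above the line in any group, with 3.49, 3.33, 3.58 and 3.54 at LD9 and 3.01, 2.98, 2.95 and 2.84 at PD12.

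Bak1, the pore former that could be measured, stayed within a narrow range in the deposited values. Its arrays held 7.12, 6.77, 7.20 and 7.16 at PD12, 7.44, 7.04, 6.76 and 6.94 at PD17, 6.90, 6.64, 6.64 and 6.48 at LD1, 7.29, 7.09, 6.97 and 7.15 at LD2, and 7.27, 7.25, 7.12 and 7.09 at LD9. It was 0.38 lower at LD1 than at PD17 (SE 0.13, adjusted p = 0.0463, limma) and 0.46 higher at LD2 than at LD1 (SE 0.13, 0.0291). Neither call was firm. The first was -0.01 after ribosomal scaling (0.946) and -0.30 with quantile normalization (0.133), and was lost in 6 of 8 fits without an array, reaching 0.189 without PD17 replicate 1; the second was lost in 5 of 8 (0.0675 to 0.0873) and with dim probe sets set equal (0.34, adjusted p = 0.133). Between LD9 and PD12 the difference was 0.12 (95% interval -0.16 to 0.40, adjusted p = 0.406). Quantile normalization (0.64, adjusted p = 0.000375) and ribosomal scaling (1.00, 1.14e-06) called Bak1 higher at LD9. Equal dim medians called it lower (-0.33, 0.0489), so its direction depends on the scaling.

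The BH3-only genes differed among themselves. Bid, which caspase-8 cleaves to link the receptors to mitochondria, had 4.89, 4.71, 3.86 and 5.07 at PD12, and at PD17 3.59, 3.89, 3.48 and 3.54. It remained below the line through lactation, with 3.61, 3.50, 3.74 and 3.61 at LD9. Bid was at least 1.33-fold lower at PD17 and at LD9 than at PD12 (adjusted p = 0.000158 and 3.60e-05, limma), with PD12 replicate 3 also below the line and inside the PD17 range. Bad averaged 4.43 ± 0.12 at LD9 and 4.70 ± 0.31 at PD12 (SD, n = 4), with 4.96, 4.37, 4.51 and 4.97 in the PD12 arrays. Its small falls of 0.28 at LD9 (adjusted p = 0.0375) and 0.31 at PD17 (0.0348) were lost without PD12 replicate 1 or 4 (adjusted p = 0.148 and 0.149 for LD9, 0.122 and 0.129 for PD17). The LD9 call was also lost without LD9 replicate 3 or 4 (0.0739 and 0.108), and the PD17 call without PD17 replicate 1 or 2 (0.0623 and 0.0919). After ribosomal scaling Bad was 0.60 higher at LD9 (6.62e-05). Bcl2l11 (BIM) gave no call with the deposited values, with 5.51 ± 0.13 at LD9 and 5.45 ± 0.21 at PD12, a difference of 0.07 with a 95% interval from -0.18 to 0.31. At LD9 it was called higher with quantile normalization (0.35, adjusted p = 0.0107) and ribosomal scaling (0.94, 3.53e-06). Equal dim medians called it lower (-0.39, 0.0102). Bik was below the line throughout.

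Bcl2l13, a less studied relative that sits in the outer mitochondrial membrane, had the largest fall of any member between LD9 and PD12. Its values were 6.36, 6.72, 6.53 and 6.14 at PD12, then 5.92, 5.68, 5.57 and 5.58 at PD17. In lactation they were 4.90, 5.42, 5.37 and 5.05 at LD1, 5.88, 5.02, 5.04 and 5.11 at LD2, and 4.13, 4.93, 3.85 and 4.78 at LD9. PD17 lay wholly below PD12, and LD9 lay wholly below LD2. The gene was 4.04-fold lower at LD9 than at PD12 (log2 change -2.01, SE 0.22, adjusted p = 1.60e-07, limma), a fall that held under each scaling and with each array left out. It was 1.68-fold lower at PD17 than at PD12 (-0.75, SE 0.22, 0.0108; 0.0998 with quantile normalization) and 1.79-fold lower at LD9 than at LD2 (-0.84, SE 0.22, 0.00894; 0.0519 in a fit of those stages alone). LD2 replicate 1, at 5.88, stood well above the other 3, and without it LD2 was called lower than PD17 (-0.63, adjusted p = 0.0237). Bcl2l13 and Bid are neighbours on mouse chromosome 6 in the RefSeq gene order on GRCm38.p6. Among the gland stages both were highest at PD12, the only stage at which Bid reached the line.

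**Figure D2:**
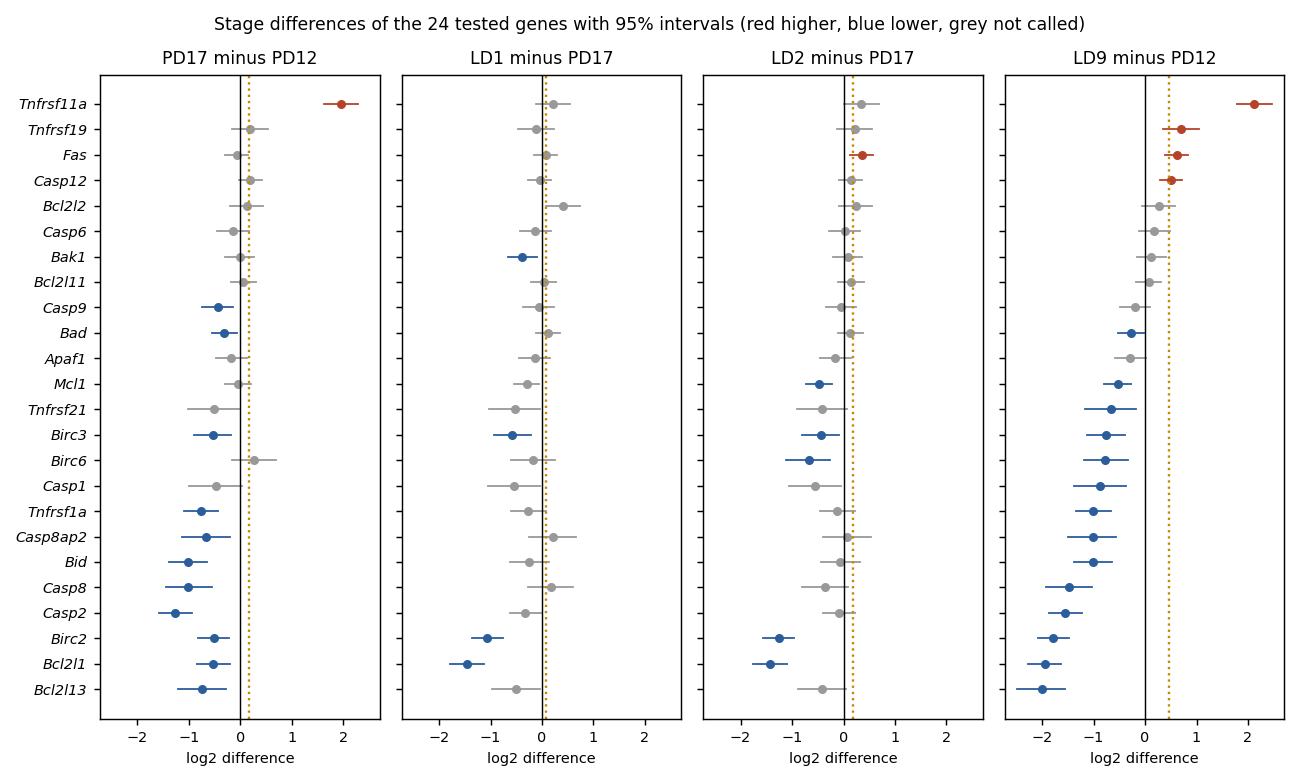
Log2 changes of the 24 tested members for PD17 minus PD12, LD1 minus PD17, LD2 minus PD17 and LD9 minus PD12, with 95% intervals. Red points were called higher, blue points called lower and grey points not called (limma, adjusted p under 0.05), and the dotted line marks the median difference of the dim probe sets. Tnfrsf11a stands far to the right in the comparisons with PD12, and Bcl2l1 and Birc2 far to the left in the comparisons with PD17.

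Of the caspases, the initiators Casp8 and Casp2 fell. The rest were near or below the line, or their calls depended on the scaling. Casp8, the initiator of the death receptor pathway, had 5.78, 5.84, 5.96 and 5.73 at PD12 and 4.53, 5.68, 4.59 and 4.48 at PD17. Its lactation values were 5.16, 5.10, 5.02 and 4.67 at LD1, 4.60, 4.15, 4.36 and 4.72 at LD2 and 4.27, 4.67, 4.08 and 4.37 at LD9. PD17 replicate 2 was close to the PD12 arrays, and the other 3 PD17 arrays were more than 1 unit below them. The fall was 2.01-fold at PD17 against PD12 (log2 change -1.01, SE 0.21, adjusted p = 0.000806, limma) and 2.79-fold at LD9 against PD12 (-1.48, SE 0.21, 3.41e-06). Both held under each scaling and with each array left out.

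Casp2, an initiator linked to the DNA damage response, had 5.23, 5.50, 4.91 and 5.25 at PD12 and 3.68, 3.63, 4.29 and 4.22 at PD17. Its LD9 arrays were at 3.69, 3.63, 3.64 and 3.73, all below the line. It was at least 2.00-fold lower at PD17 and at LD9 than at PD12 (adjusted p = 1.95e-06 and 2.64e-08, limma). Casp8ap2 was 0.67 lower at PD17 than at PD12 (SE 0.22, adjusted p = 0.0208), which was lost without PD12 replicate 2 (0.0867) or PD17 replicate 2 (0.0681). Quantile normalization (-0.44, 0.120) and ribosomal scaling (-0.51, 0.0889) also removed that call. Casp8ap2 was 2.03-fold lower at LD9 than at PD12 (-1.02, SE 0.22, 0.000365). That LD9 call was lost after ribosomal scaling (-0.15, adjusted p = 0.586). Its LD9 arrays held 4.84, 4.46, 4.17 and 4.80, against 5.26, 6.16, 5.56 and 5.38 at PD12.

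With the deposited values Casp9, Apaf1 and Casp6 gave no call between LD9 and PD12, but each was called under other scalings. Casp9, which APAF1 activates, had 6.10, 6.09, 5.81 and 6.31 at PD12, 5.81, 5.91, 5.52 and 5.31 at PD17 and 6.15, 5.84, 5.55 and 5.98 at LD9, and its groups overlapped. It was 0.44 lower at PD17 than at PD12 (SE 0.14, adjusted p = 0.0166, limma), a call lost without PD12 replicate 4 (0.0610) or PD17 replicate 4 (0.0709). That call was also lost with quantile normalization (-0.23, 0.186), after ribosomal scaling (-0.29, 0.102) and in a fit of those stages alone (0.0558). At LD9 Casp9 differed from PD12 by -0.20 (95% interval -0.49 to 0.10, adjusted p = 0.212). Ribosomal scaling called it higher (0.68, adjusted p = 0.000199) and equal dim medians called it lower (-0.65, 0.000833). Apaf1 ranged from 3.86 to 4.07 at LD9 and from 4.02 to 4.70 at PD12, a difference of -0.29 (95% interval -0.59 to 0.02, adjusted p = 0.0768). It was called lower with quantile normalization (-0.55, adjusted p = 0.000707) and with equal dim medians (-0.74, 0.000141). Casp6, an executioner, averaged 5.49 ± 0.25 at LD9 and 5.30 ± 0.32 at PD12 (SD, n = 4; adjusted p = 0.257). It was called higher with quantile normalization (0.44, adjusted p = 0.00946) and after ribosomal scaling (1.06, 2.36e-07).

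The inflammatory caspases were near or below the line. Casp1, which matures interleukin-1, held 3.86, 3.57, 3.62 and 3.65 at LD9, against 4.90, 4.31, 3.62 and 5.39 at PD12, and was at least 1.26-fold lower (adjusted p = 0.00280, limma) with groups that overlapped. Casp12 held 4.48, 4.24, 4.49 and 4.56 at LD9, against 3.96, 3.84, 3.90 and 4.06 at PD12, and was at least 1.17-fold higher (0.000282), but 0.05 higher with dim probe sets set equal (0.668). Casp4 did not reach the line, and neither did Casp14, a caspase outside this inflammatory group.

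The 3 inhibitor of apoptosis genes were lower at LD9 than at PD12, Birc2 most, and Birc2 alone kept that call after ribosomal scaling. Birc2 (cIAP1), a ubiquitin ligase that holds TNF receptor 1 signalling away from caspase-8, had 7.22, 7.18, 7.22 and 7.29 at PD12 and 6.48, 7.01, 6.62 and 6.73 at PD17. Its lactation values were 5.48, 5.90, 5.54 and 5.70 at LD1, 5.11, 5.28, 5.90 and 5.52 at LD2 and 5.46, 5.35, 5.42 and 5.58 at LD9. As for Bcl2l1, all 12 lactation arrays lay below all 8 pregnancy arrays and PD17 lay below PD12. LD1 was 2.08-fold below PD17 (log2 change -1.06, SE 0.14, adjusted p = 2.57e-05, limma), LD2 was 2.39-fold below PD17 (-1.26, SE 0.14, 1.51e-06) and LD9 was 3.42-fold below PD12 (-1.78, SE 0.14, 2.55e-09). These 3 falls held under each scaling and with each array left out. The fall from PD12 to PD17 (-0.52, SE 0.14, 0.00708) was lost with quantile normalization (0.0664), with ribosomal scaling (0.0680) and when the gene's dim second probe set was averaged in (-0.08, 0.625).

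Birc3 (cIAP2), the neighbour and close relative of Birc2, had 5.99, 5.45, 5.98 and 5.86 at PD12, 5.23, 5.44, 5.53 and 4.93 at PD17, 4.90, 4.45, 4.75 and 4.71 at LD1 and 5.31, 4.88, 4.64 and 5.42 at LD9. Its falls were smaller: 0.54 at PD17 against PD12 (adjusted p = 0.0157, limma; 0.0649 without PD17 replicate 4), 0.58 at LD1 against PD17 (0.0182; 0.0571 to 0.0637 in the 3 fits without an array that lost the call), 0.44 at LD2 against PD17 (0.0395; up to 0.113, lost in 6 of 8 fits) and 0.76 at LD9 against PD12 (0.000498). After ribosomal scaling Birc3 was 0.11 higher at LD9 than at PD12 (0.529) and 0.12 higher at LD2 than at PD17 (0.540). That scaling also removed its LD1 call (-0.21, adjusted p = 0.278, limma) and its PD17 call (-0.38, 0.0601). With quantile normalization the PD17 call (-0.32, 0.167) and the LD2 call (-0.44, 0.0569) were lost. Birc6, a very large member of the family, held 4.25, 4.53, 3.95 and 4.01 at LD9, against 5.28, 4.74, 4.70 and 5.09 at PD12, and was at least 1.66-fold lower (0.00210). It was not called at PD17 against PD12 or at LD1 against PD17, and fell by 0.68 at LD2 against PD17 (SE 0.20, 0.00985), with 4.34 to 4.94 at LD2 and 4.89 to 5.57 at PD17. Ribosomal scaling gave 0.11 at LD9 (adjusted p = 0.619) and -0.13 at LD2 (0.565) for Birc6, while Birc2 kept its calls in the lactation comparisons.

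The bases before the annotated starts of the neighbouring pair are shown because Birc2 fell after birth, while the Birc3 falls depended on the scaling. Both are from RefSeq on GRCm38.p6, Birc2 at chr9:7837132-7837307 and Birc3 at chr9:7873206-7873420, minus strand, read toward the gene, and neither motif was found in them.
Birc2: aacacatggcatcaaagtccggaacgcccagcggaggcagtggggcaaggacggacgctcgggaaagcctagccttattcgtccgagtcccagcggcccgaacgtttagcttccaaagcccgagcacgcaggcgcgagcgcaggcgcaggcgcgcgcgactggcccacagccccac
Birc3: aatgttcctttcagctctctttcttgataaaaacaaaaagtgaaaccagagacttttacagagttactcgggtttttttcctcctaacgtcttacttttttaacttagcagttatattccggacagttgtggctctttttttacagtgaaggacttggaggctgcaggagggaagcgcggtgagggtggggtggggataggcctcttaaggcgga
The Birc2 stretch is 176 bases and the Birc3 stretch 215. Casp1, Casp4 and Casp12 are likewise neighbours in the RefSeq gene order, also on chromosome 9.

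**Figure D3:**
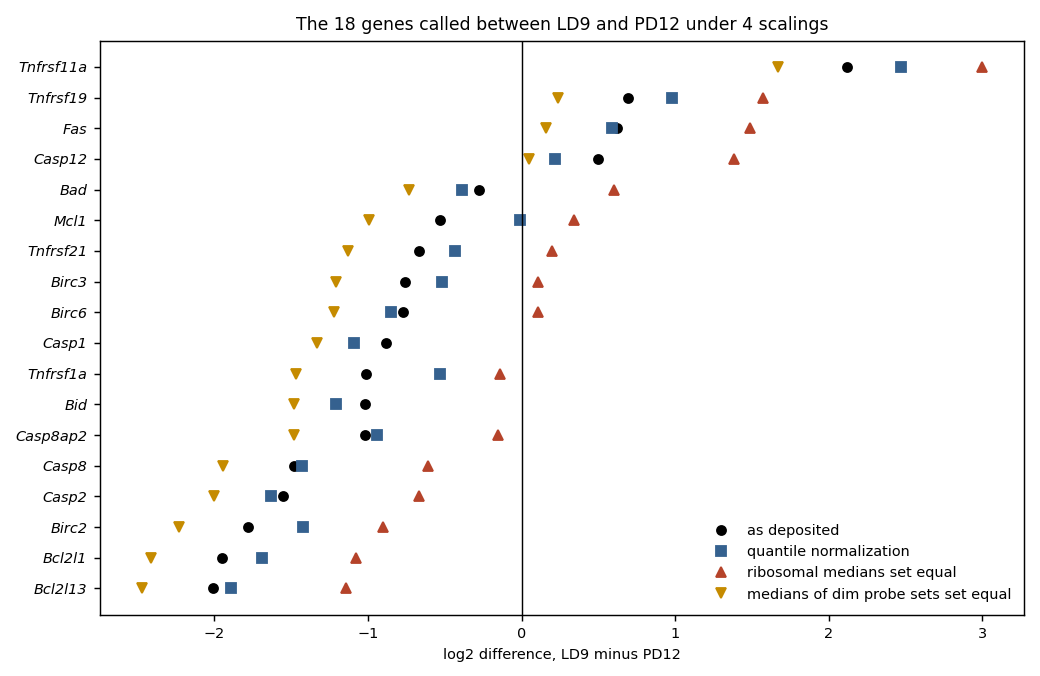
Log2 change between LD9 and PD12 for the 18 called members under the deposited values, quantile normalization, equal ribosomal medians and equal medians of dim probe sets. Points right of 0 are higher at LD9. Tnfrsf11a stays right of 0 and Bcl2l1, Bcl2l13, Birc2, Casp2 and Casp8 stay left of 0 in every scaling, while Mcl1, Bad, Birc3, Birc6 and Tnfrsf21 cross 0 with ribosomal scaling. Bid and Casp1 have no ribosomal point.

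The calls were spread unevenly over the steps of the time course. PD17 against PD12 gave 1 member higher and 11 lower, with a median of -0.38 against -0.02 over all probe sets, of which 45.1% were called, 18.4% higher and 26.7% lower. Under quantile normalization the split was 1 and 4, after ribosomal scaling 3 and 4, and with dim probe sets set equal 1 and 12. Tnfrsf11a, Bid, Casp2, Casp8 and Tnfrsf1a kept their calls under all scalings in which they were tested. Bid and Casp2 reached the line through PD12 alone, so the direction of their calls was set in part by the filter. LD1 against PD17 gave 0 higher and 4 lower, with 23.3% of probe sets called, 9.32% higher and 14.0% lower. LD2 against PD17 gave 1 higher and 5 lower, with 49.9% called, 25.5% higher and 24.5% lower. The ribosomal scaling turned these splits to 8 higher and 2 lower and to 14 higher and 2 lower; quantile normalization gave 1 and 5, and 3 and 6, and equal dim medians 0 and 5, and 0 and 8. Bcl2l1 and Birc2 were the members that kept their calls in both under all 3. Within lactation few members moved: only Bak1 was called between LD2 and LD1 (14.3% of probe sets called), and between LD9 and LD2 Bcl2l13 was called lower, as were 16.2% of probe sets, and Fas higher, as were 8.82%. Ribosomal scaling gave 5 calls in each of these comparisons.

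Genes that work with the receptors and with NF-kappaB were taken from lists written from general knowledge. Of 9 tested NF-kappaB genes, 6 fell and none rose at LD1 against PD17, with a median of -0.66, against 0.03 over all probe sets. LD2 against PD17 gave 1 higher and 5 lower. Over all probe sets 9.32% were called higher and 14.0% lower at LD1, and 25.5% higher and 24.5% lower at LD2. Nfkb2, the precursor of p52, was below the line at 3.71 ± 0.28 at LD1, against 5.53 ± 0.42 at PD17 (SD, n = 4; adjusted p = 4.81e-06, limma). Nfkbia, the inhibitor that NF-kappaB itself induces, fell by 1.21 (SE 0.16, 1.49e-05), the subunit gene Rela by 1.00 (SE 0.14, 3.33e-05) and Bcl3, an atypical inhibitor-family member, by 0.94 (SE 0.15, 0.000156). These 4 LD1 falls held under each scaling, in which the list split 0 and 6 with quantile normalization, 3 and 4 after ribosomal scaling and 0 and 6 with equal dim medians. At LD2 the ribosomal scaling gave 3 higher and 2 lower, and turned Ikbkg upward. Bcl2l1, Birc2, Birc3 and Nfkbia are known from other cells as NF-kappaB target genes. Whether NF-kappaB has a part in their falls here was not tested.

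Among 13 tested adaptors and TRAF genes, LD2 against PD17 gave 4 higher and 2 lower, near the 49.9% of all probe sets called. Traf1, a TRAF that binds the cIAPs, averaged 4.65 ± 0.66 at LD2 and 3.04 ± 0.11, below the line, at PD17 (SD, n = 4; adjusted p = 9.24e-05, limma). Tnfaip8 rose by 0.78 (SE 0.16, 0.000611), and Cflar (c-FLIP), which blocks caspase-8, by 0.39 (SE 0.10, 0.00490); the Cflar rise was not called with dim probe sets set equal (0.19, 0.199). Traf6 was 0.70 lower (SE 0.25, 0.0279; 0.100 with quantile normalization). The list split 5 and 0 with quantile normalization, 9 and 0 after ribosomal scaling, and 2 and 2 with equal dim medians. Fadd, the adaptor between FAS and caspase-8, was 4.73 ± 0.12 at LD9 and 4.70 ± 0.33 at PD12 (adjusted p = 0.852). Of the TNF family ligand genes 12 had a probe set and 3 were tested; Tnf, Fasl, Tnfsf10, Lta and Ltb were below the line at both LD9 and PD12.

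Marker genes of other cell types in the gland moved with the stages and are set beside the falls. Between LD9 and PD12 all 7 tested macrophage markers, 7 fibroblast markers, 6 adipocyte markers and 5 myoepithelial markers were lower, and 5 of 7 luminal markers were lower and 1 higher, where 42.4% of all probe sets were called lower. Other lists went up or were mixed: all 3 tested B and plasma cell markers were higher, with a median of 1.08, and 2 were higher and 1 lower of 3 T and NK cell markers and of 3 neutrophil and mast cell markers. Of 6 endothelial markers 2 were higher and 3 lower, both tested erythroid markers were lower, and of 4 hepatocyte markers 3 were higher and 1 lower. The fibroblast, B and plasma cell and T and NK cell calls held under each scaling. After ribosomal scaling Cldn7 of the luminal list, Myh11 and Cnn1 of the myoepithelial, Fabp4 of the adipocyte, C1qa of the macrophage and Tek of the endothelial list had differences above 0, of which that of Fabp4 alone was called (0.54, adjusted p = 0.000510, limma), and both of these scalings removed the erythroid calls. The summed intensity of the macrophage list was 435 to 851 at LD9 and 2188 to 3336 at PD12, that of the fibroblast list 1322 to 4125 at LD9 and 12654 to 15657 at PD12, and that of the adipocyte list 1103 to 1851 at LD9 and 6380 to 10179 at PD12. The lowest LD9 sum in each of these 3 lists was that of replicate 1. The luminal list summed to 4274 to 4810 at LD9 and 6926 to 9208 at PD12. The macrophage markers Adgre1 and Fcgr1 lay below the line at both stages, and Cd68 and Tyrobp at LD9. The macrophage sum was 760 to 968 at LD1 and 1252 to 1478 at PD17, the fibroblast sum 5160 to 8526 at LD1 and 10159 to 10864 at PD17, and the luminal sum 4778 to 6297 at LD1 and 6768 to 7553 at PD17. Of the T and NK cell markers, Cd3e, Cd4, Cd8a, Cd8b1 and Klrd1 were below the line in every group, while Cd3d averaged 5.05 ± 0.21 at LD9 and 3.95 ± 0.11 at PD12 and Cd3g 4.78 ± 0.19 at LD9 and 4.01 ± 0.09 at PD12 (SD, n = 4). The part of these cell types in the falls of Bcl2l1, Birc2, Bcl2l13, Casp8 and the other members was not tested.

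Liver was set against gland, both on 8% fat at lactation day 10, to show which of these genes differed between the tissues. Of 22 tested members, 10 were higher and 6 lower in liver, with a median of 0.32 against -0.01 over all probe sets, of which 80.0% were called, 39.7% higher and 40.3% lower. The ribosomal scaling gave 18 higher and 4 lower, quantile normalization 7 and 6, and equal dim medians 14 and 6. The 72.7% of members called is again near the background. Of the 16 calls, 11 held under each of the scalings: Bak1, Bcl2l1, Bcl2l13, Bcl2l2, Bid, Birc6, Casp8, Fas, Tnfrsf11a, Tnfrsf1b and Tnfrsf21. Among these, Bid, Birc6 and Tnfrsf1b reached the line through liver alone, and Tnfrsf11a and Tnfrsf21 through gland alone. The direction of those calls was set in part by the filter.

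The receptors were divided between the tissues. Tnfrsf1b held 5.69, 6.17 and 5.97 in liver, against 2.00, 1.97 and 1.96 in gland, and was at least 3.30-fold higher in liver (adjusted p = 5.95e-08, limma). It reached the line in liver alone. Tnfrsf11a held 3.32, 3.14 and 3.06 in liver, against 6.91, 6.80 and 7.00 in gland, and was at least 6.42-fold lower (2.58e-08), having reached the line in gland alone. Fas held 5.65, 6.23 and 5.84 in liver, against 4.83, 5.04 and 4.84 in gland, a 2.00-fold difference (log2 change 1.00, SE 0.16, 0.000570). Liver cells are known for their sensitivity to FAS. Tnfrsf21, which also reached the line in gland alone, was at least 2.18-fold lower in liver (3.10e-05). Tnfrsf1a was 1.38-fold higher in liver (0.47, SE 0.10, 0.00315), a difference that was 0.03 with quantile normalization (0.742) and 0.12 with the gene's dim second probe set averaged in (0.201). Ltbr, a related receptor outside the symbol rule, averaged 7.17 ± 0.17 in liver and 5.66 ± 0.16 in gland (SD, n = 3; 1.73e-05).

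Within the BCL2 family, liver had more Bid and Bcl2l1 and less Bak1 and Bcl2l2. Bid held 5.45, 5.68 and 5.52 in liver, against 3.35, 3.40 and 3.31 in gland, and was at least 2.52-fold higher (adjusted p = 3.61e-07, limma). Liver is the tissue in which BID is known to be needed for FAS killing in mice. Bcl2l1 held 6.69, 6.86 and 6.21 in liver, against 5.56, 5.43 and 5.16 in gland (2.30-fold higher, log2 change 1.20, SE 0.19, 0.000532), and Bcl2l13 held 6.38, 6.76 and 6.72 in liver, against 4.99, 5.46 and 4.80 in gland (2.90-fold higher, 1.54, SE 0.19, 0.000139). Bak1 held 6.09, 6.08 and 6.07 in liver, against 7.50, 7.31 and 7.14 in gland (2.35-fold lower, -1.23, SE 0.11, 2.39e-05). Bcl2l2 held 5.66, 5.54 and 5.30 in liver, against 6.68, 6.85 and 6.64 in gland (2.34-fold lower, -1.22, SE 0.12, 4.14e-05). None of these groups overlapped, which was also so for 83.1% of all probe sets tested between the tissues. Mcl1 differed by 0.44 (95% interval -0.06 to 0.93, 0.0914) and Bad by -0.13 (-0.33 to 0.07, 0.185).

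Casp8 held 5.12, 5.82 and 5.53 in liver, against 4.54, 4.46 and 4.50 in gland, and was 1.99-fold higher (log2 change 0.99, SE 0.17, adjusted p = 0.000942, limma). Casp9 was 0.35 higher (SE 0.12, 0.0276), but 0.05 with quantile normalization (0.718), 0.0566 in adjusted p with the replicate number as a block, and lost in 4 of 6 fits without an array (0.0615 to 0.0848). Birc6 held 5.14, 5.30 and 4.93 in liver, against 3.66, 3.66 and 4.24 in gland, and was at least 1.87-fold higher (0.000354). Its mean reached the line in liver alone. Birc2 was 1.63-fold higher (0.70, SE 0.18, 0.00864; 0.0640 with quantile normalization), while Birc3 gave no call (-0.22, 95% interval -0.49 to 0.05, 0.108). Of the 14 members lower at LD9 than at PD12, Birc2, Birc6, Bcl2l1, Bcl2l13, Bid, Casp8 and Tnfrsf1a were called higher in liver. Tnfrsf21 was called lower in liver, and Bad, Birc3, Casp8ap2 and Mcl1 were not called. Casp1 and Casp2 were below the line in both tissues. Bid reached the line through PD12 alone in the stages and through liver alone in the tissues. The liver calls of Birc2 and Tnfrsf1a were lost with quantile normalization. The matching share over all probe sets was not counted, so no pattern of these genes is read from these calls.

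Some partner genes of the receptors also differed between the tissues. Fadd was 5.51 ± 0.29 in liver and 4.43 ± 0.20 in gland (SD, n = 3; 1.08, SE 0.17, adjusted p = 0.000584, limma), Cflar 6.32 ± 0.13 in liver and 5.44 ± 0.09 in gland (0.000122), and Cradd, an adaptor for caspase-2, 6.32 ± 0.06 in liver and 3.43 ± 0.10, below the line, in gland (5.80e-08). Tnfaip8 was lower in liver, at 4.10 ± 0.07, below the line, against 6.22 ± 0.23 in gland (2.43e-06). Of the 13 adaptors tested, 3 were higher and 4 lower in liver, where 80.0% of all probe sets were called. Of the 7 tested macrophage markers, 6 were higher in liver, with a summed intensity of 2011 to 2196, against 902 to 1066 in gland, and Adgre1 and Fcgr1 were below the line in both. The part of liver macrophages in the higher Tnfrsf1b was not tested.

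**Figure D4:**
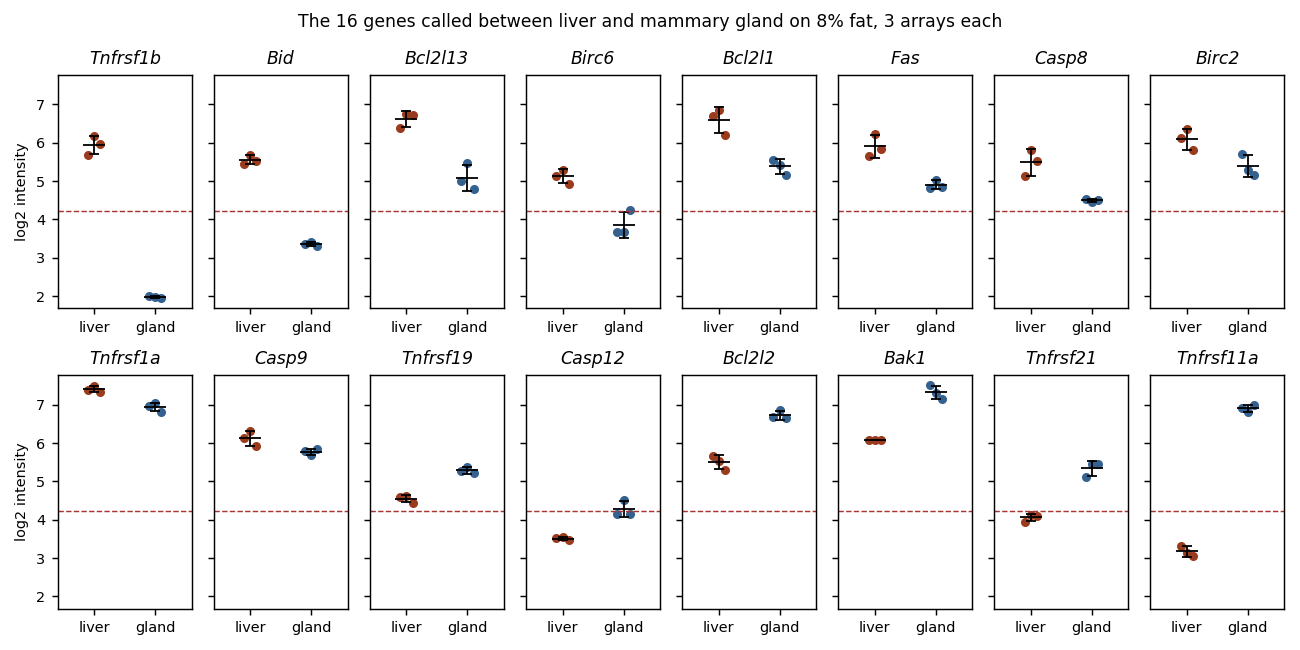
Log2 intensity of the 16 members called between liver (left in each pair) and mammary gland (right), both on 8% fat, with each array as a point and mean ± SD as bars (n = 3 per tissue). The dashed line is the intensity line of 4.22. Tnfrsf1b and Bid are above the line in liver and below it in gland, and Tnfrsf11a is the reverse.

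No member was called between diets, with 3 arrays per group. Between 40% and 8% fat 0 of 19 tested members were called by limma, 0 had an unadjusted p under 0.05, and 0.0925% of all probe sets were called. Differences ran from -0.33 (Tnfrsf21) to 0.22 (Bak1), and the 95% intervals of the 19 members all lay between -0.71 and 0.63. Between 16% and 8% fat 0 members were called, 1 had an unadjusted p under 0.05, and 0.00% of probe sets were called. That member was Tnfrsf19, with 5.48, 5.81 and 5.70 on 16% fat, against 5.27, 5.37 and 5.21 on 8% fat (log2 change 0.38, SE 0.12, adjusted p = 0.268, limma), and on 40% fat it held 5.26, 5.17 and 5.47. The intervals for 16% against 8% lay between -1.01 and 0.73. Both diet comparisons share the 8% arrays.

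Bcl2l1 held 5.56, 5.43 and 5.16 on 8% fat, 5.29, 5.36 and 5.19 on 16% fat and 5.46, 5.55 and 5.12 on 40% fat. Tnfrsf11a held 6.91, 6.80 and 7.00 on 8% fat, 6.94, 6.89 and 6.99 on 16% fat and 7.01, 7.06 and 6.85 on 40% fat. The ranges of the 3 diets overlapped for both genes. For Tnfrsf11a the 40% against 8% difference was 0.07 (95% interval -0.15 to 0.29), for Bcl2l1 -0.00 (-0.32 to 0.31), for Birc2 -0.08 (-0.41 to 0.25) and for Casp8 0.02 (-0.28 to 0.31). Mcl1 had wider limits, with 7.91, 7.69 and 7.59 on 40% fat, against 7.25, 7.98 and 7.52 on 8% fat (0.15, -0.25 to 0.55).

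**Figure D5:**
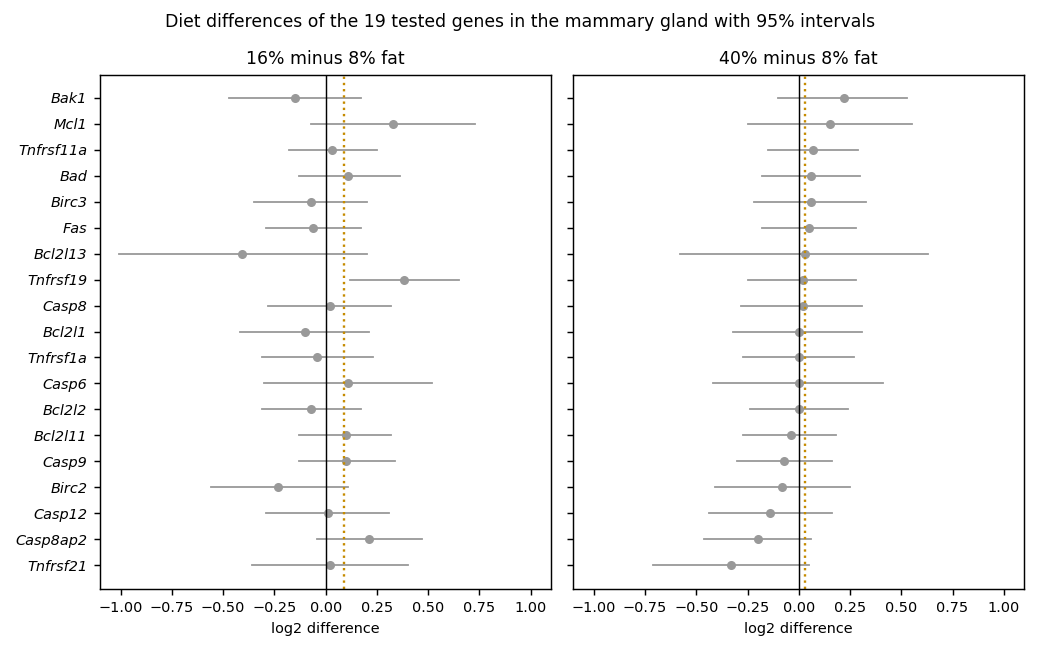
Log2 change of the 19 tested members for 16% minus 8% fat and 40% minus 8% fat in the mammary gland, with 95% intervals (n = 3 arrays per diet) and the median difference of the dim probe sets as a dotted line. None was called, and the intervals reach no further than -1.01 and 0.73.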

How the data were processed

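Per the submitters' processing notes the arrays were processed with GCRMA, and the deposited table holds linear intensities, which the authors had background-corrected and normalized before deposit. The values run from 0.684 to 58520, with array medians of 16.1 to 21.5; the software version is not given in the sources used. The 66 control probe sets were left out of 12488, intensities under 1 were set to 1 (208 values), and log2 was taken.

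A platform annotation table gave 10833 probe sets a single gene, of which 10817 matched RefSeq (GRCm38.p6), 396 probe sets several genes and 1193 none. Each gene was read from its single-gene probe set with the highest mean over the 32 arrays. There were 3 limma fits, made in R 4.3.3 (limma 3.58.1): the 20 stage arrays, the 9 diet arrays, and the 6 liver and gland arrays on 8% fat, with no covariate. Probe sets entered a fit if at least 1 group averaged the overall median (intensity 18.6) or more, and p-values were Benjamini-Hochberg adjusted over the 7189, 6483 and 6897 probe sets tested. The fits were tested on simulated data.

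The members and the lists of partner and marker genes were chosen with earlier results of these data known. Every member may be named. Array values are given mainly for members called at 2-fold or more in any comparison and for central pathway genes, and not for every group. From each list at most 4 called genes with the largest changes and 2 not called are given. Fas has a control probe set, which was not tested. Alternatives were the filter, the scaling, log2(value + 16), the mean of a gene's probe sets, the replicate number as a block, the compared groups alone, and each array left out. Figures were drawn with matplotlib 3.10.9.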

Additional observations from a re-analysis of the deposited data

Results flagged for a closer look

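In the 120 groups of 4 arrays formed by the 24 tested members and 5 stages, 9 arrays (7.5%) lay so far from the other 3 that the gap exceeded the 95% critical value of Dixon's test, where chance gives about 5%, or 1 in 20 groups. LD2 replicate 1 was the array in 3 of them: Bcl2l11 at 5.93 (others 5.56 to 5.58), Bcl2l13 at 5.88 (5.02 to 5.11) and Casp8ap2 at 5.56 (4.72 to 4.85). Casp8 in PD17 replicate 2 was 5.68 (4.48 to 4.59). Bcl2l2 in PD17 replicate 1 was 6.17 (6.71 to 6.75). Apaf1 in LD1 replicate 4 was 4.28 (3.77 to 3.84), and Bcl2l11 in LD1 replicate 2 was 5.78 (5.43 to 5.49). Tnfrsf11a in LD9 replicate 1 was 7.22 (6.96 to 6.99), and Tnfrsf19 in LD2 replicate 2 was 5.36 (5.57 to 5.60).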

How the results depend on the processing

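Of the 59 member changes called, 28 kept their call in every setting run for them, and over 959 recomputed values 865 kept direction and call, 87 kept direction but lost the call, and 7 turned, all after ribosomal scaling: LD2 against PD17 for Birc3 (0.12) and Mcl1 (0.08), and LD9 against PD12 for Bad (0.60), Birc3 (0.11), Birc6 (0.11), Mcl1 (0.34) and Tnfrsf21 (0.20). The cause was not tested. Equal medians of dim probe sets were added as a scaling after seeing the data. Some changes not called with the deposited values gained a call in other settings.

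Counts of members called moved by more than 1.5 times as follows. With no filter they were 13 for LD2 against PD17 (6 with the filter), 21 for PD17 against PD12 (12), 2 for LD2 against LD1 (1) and 29 for liver against gland (16). A filter at the 75th percentile (intensity 69.5), which tests fewer genes, left 3 for LD2 against PD17, 5 for PD17 against PD12, 1 for LD9 against LD2 (2), 6 for LD9 against PD12 (18), 7 for liver against gland and 8 over any stage (20). Ribosomal scaling gave 16 for LD2 against PD17, 7 for PD17 against PD12, 10 for LD1 against PD17 (4), 5 for LD2 against LD1 and 5 for LD9 against LD2. PD17 against PD12 gave 5 with quantile normalization and 6 with each gene averaged over its probe sets. Equal dim medians gave 0 for LD2 against LD1 and 1 for LD9 against LD2, and fits of the compared groups alone gave 3 and 1.

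With each array left out, members called ranged from 5 to 7 for LD2 against PD17, 10 to 13 for PD17 against PD12, 2 to 4 for LD1 against PD17, 0 to 1 for LD2 against LD1, 1 to 3 for LD9 against LD2, 16 to 19 for LD9 against PD12, 15 to 17 for liver against gland, 18 to 22 over any stage, and 0 for both diets. Replicate numbers did not pair the arrays: deviations of same-numbered arrays correlated at -0.23 to 0.27 in the stages, -0.18 to 0.14 in the diets and -0.01 to 0.02 between tissues, and 11 of 40, 4 of 9 and 1 of 3 pairs were the best match for their number. With the replicate block the counts were 6, 12, 4, 1, 2 and 19 for the stage comparisons in the order LD2 against PD17, PD17 against PD12, LD1 against PD17, LD2 against LD1, LD9 against LD2 and LD9 against PD12, 0 for both diets, 15 for liver against gland and 22 over any stage.

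Over all probe sets, calls without the filter and with the 75th percentile were 7676 and 2107 for LD2 against PD17 (3589), 6873 and 1890 for PD17 against PD12 (3245), 10370 and 3085 for LD9 against PD12 (5577), 10292 and 3368 for liver against gland (5518) and 11102 and 3538 over any stage (6293). Ribosomal scaling gave 4403 for LD1 against PD17 (1674) and 2342 for LD2 against LD1 (1027). LD2 against LD1 gave 523 to 1332 calls with an array left out, of which the fits without LD1 replicate 2, 3 or 4 or LD2 replicate 3 or 4 gave 523 to 642. For 40% against 8% fat 6 calls became 1 with the block, with equal dim medians or with those groups alone, and 1 to 4 with an array left out; for 16% against 8% fat 0 became 1 to 2 in fits without an array. Signal near background limits the 11 members below the line.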

Other observations

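From the partner lists, 3 genes are given for the size of their differences between LD9 and PD12. Cidea, which belongs to the CIDE family and coats lipid droplets, averaged 13.55 ± 0.11 at LD9 and 7.38 ± 0.61 at PD12 (SD, n = 4; log2 change 6.17, SE 0.20, adjusted p = 9.23e-15, limma), and was 5.71 to 7.04 higher under the other scalings. The kinase gene Akt1 averaged 10.58 ± 0.19 at LD9 and 9.27 ± 0.10 at PD12 (1.31, SE 0.11, 2.52e-09), while Akt2 averaged 5.41 ± 0.16 at LD9 and 7.47 ± 0.26 at PD12 (-2.06, SE 0.17, 3.47e-09), and both kept their direction and call under each scaling. The survival signalling list gave 3 higher and 8 lower of 12 tested, and 5 and 1 after ribosomal scaling, 3 and 4 with quantile normalization and 3 and 10 of 13 with equal dim medians. Of 18 involution-associated genes tested, 7 were higher and 8 lower, and of 10 genes of the p53 axis 3 were higher and 4 lower; ribosomal scaling gave 10 and 3, and 6 and 1. Over all probe sets 77.6% were called between these stages.

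At PD12, replicates 1 and 4 held the top values in 12 of the 24 tested members, among them Bad, Bid, Birc6, Casp1, Fas and Tnfrsf1a, against 1 to 4 members for any other pair of arrays. How often each pair was on top over all probe sets was not counted, so this may be a feature of the arrays rather than of these genes. The summed macrophage markers of PD12 replicates 1 to 4 were 2540, 2188, 2368 and 3336. Their part in the members' values was not tested.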
